A study of Mus musculus with 18 samples.

Results

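The lungs of C57BL/6J mice that had become moribund after 18 Gy to the whole thorax were compared with the lungs of untreated C57BL/6J mice, 3 arrays against 3, which are 6 of the 18 arrays of a series on 3 mouse strains. The members were taken by their titles, and the labels spell the strain C57BL6/J. Both groups were inbred mice with no transgene or deletion named, and each array held total RNA of a whole right lung. The irradiated mice were exposed once at 8 weeks of age to a caesium-137 source, with the rest of the body behind 3 cm of lead, under which 3% of the beam strength remained. They were killed at 28 to 30 weeks of age, 20 to 22 weeks after exposure, when weight loss, ruffled fur, fast breathing and a hunched posture marked them as moribund. The untreated mice were 15 to 26 weeks old, so exposure, illness and age went together and cannot be told apart. The labels describe the irradiated samples as 3 mice and the untreated ones as 3 samples from mice, without saying that each untreated sample was its own animal, so p-values measure only the spread between these samples. The 6 A/J and 6 C3H/HeJ lungs of the series, 3 irradiated and 3 untreated in each strain, entered the shared estimate of spread and the comparison of strains that closes the account. Their irradiated mice received the same dose at the same age. A/J mice were killed at 30 to 32 weeks of age, 22 to 24 weeks after exposure. C3H/HeJ mice were killed at 20 to 22 weeks of age, 12 to 14 weeks after exposure. Untreated mice of both strains were 15 to 26 weeks old.

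Thoracic irradiation damages the DNA of resident lung cells, and cells with such damage stabilise p53, a transcription factor that stops division and can lead to cell death. Months later a lung that has received a high dose can develop pneumonitis, in which leukocytes and protein-rich fluid fill the airspaces, or fibrosis, in which collagen is laid down. The capillary endothelium, which lines the gas-exchange surface together with flat type 1 and surfactant-secreting type 2 alveolar cells, is regarded as one of the lung's radiation-sensitive tissues.

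Levels are given on the log2(intensity + 7) scale after quantile normalisation, and differences of such levels as log2 fold changes with their standard errors, which understate the change of dim genes. The lowest level possible is 2.81 and the median level of the 12412 genes tested was 6.90; no detection calls were used, so a level near the bottom of this scale says only that a gene was dim. A gene was called when its adjusted p (limma, Benjamini-Hochberg over all 12412 genes, two-sided) was below 0.05. Where 2 sets of 3 levels follow a gene with no further label, the first is of irradiated and the second of untreated arrays 1, 2 and 3. In this bulk RNA, fewer cells of a type and less RNA per cell cannot be told apart.

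All 6 arrays carried the strain's and the organ's own signals. H2-Ea, an MHC class II gene that C57BL/6 mice do not express, lay between 3.36 and 4.29 on them, against means of 7.11 and 7.08 in untreated A/J and C3H/HeJ lung. The A/J irradiated arrays were also low in it, at 3.62 to 4.29, which goes against their strain label, while Rpgrip1 had means of 5.00 and 4.96 in irradiated and untreated A/J lung and of 9.73 and 9.70 in C57BL/6J. The Y-linked gene Eif2s3y was between 7.64 and 8.07 and Xist, the RNA of the inactive X chromosome, between 4.57 and 5.54, with no called difference between the groups. The club-cell secretoglobin Scgb1a1 had the same level, 13.19, on each array, and the surfactant gene Sftpc stood between 12.87 and 13.01; at the top of a quantile-normalised scale a difference could not show. Median deposited intensities ran from 17.8 to 28.0, and the 5' to 3' ratios of the array's actin controls from 0.677 to 0.749 with the groups overlapping.

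Untreated arrays 1 and 3 stood apart from the other 4 in genes of a tissue other than alveolar lung. Krt4, a keratin of non-keratinising squamous epithelium such as that of the oesophagus, had levels of 11.52, 4.43 and 11.75 in untreated arrays 1, 2 and 3 and 3.36, 3.06 and 4.60 in irradiated arrays 1, 2 and 3. The partner keratin Krt13 had 10.65, 3.68 and 10.66 in the untreated and 3.22, 3.02 and 3.19 in the irradiated arrays, and the skeletal muscle actin Acta1 had 10.21, 4.71 and 10.18 in the untreated and 4.85, 4.54 and 8.17 in the irradiated arrays. Thus 2 of the 3 untreated arrays were high in both keratins, while untreated array 2 lay near the irradiated ones. Over 31 squamous genes the mean level was 7.59 and 7.53 in untreated arrays 1 and 3, 5.15 in untreated array 2 and 4.91 to 5.07 in the irradiated arrays. Over 19 skeletal muscle genes it was 7.05 and 6.95, then 4.55, and 4.63 to 5.47. Neither Krt4 (limma adjusted p = 0.0525) nor Krt13 (adjusted p = 0.0777) was called. Values below are therefore also given, where they moved, against untreated array 2 alone, in a limma fit on the same genes in which that lone array is assumed to vary like the other groups.

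**Figure D1:**
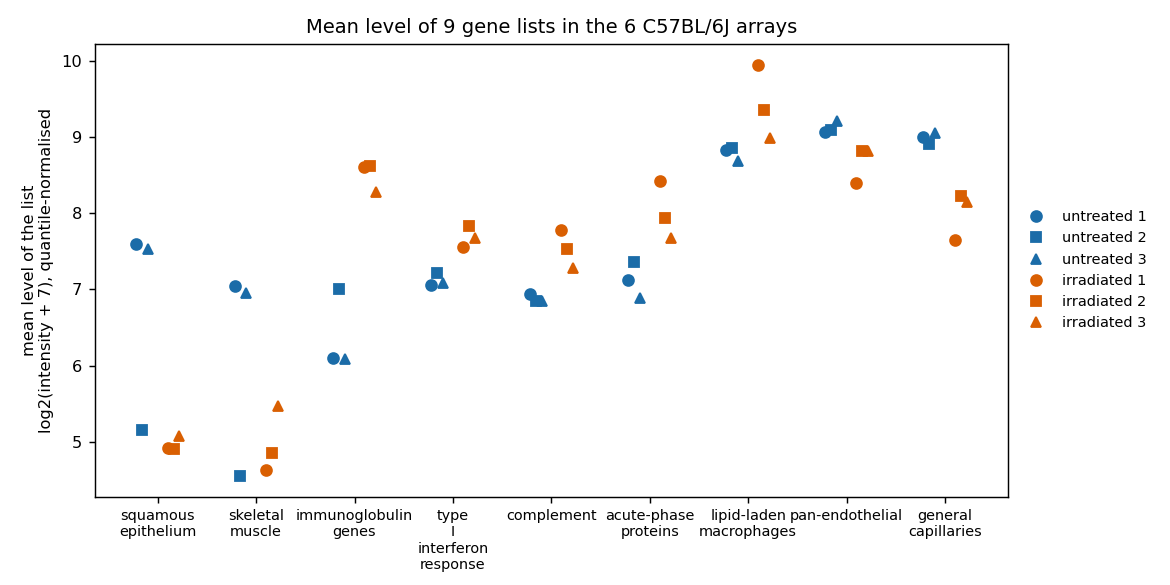
Mean level, in log2(intensity + 7) after quantile normalisation, of the tested genes of 9 lists in each C57BL/6J array; blue symbols are untreated and orange symbols irradiated arrays 1 (circle), 2 (square) and 3 (triangle). The squamous and skeletal muscle lists split the untreated arrays, at 7.59 and 7.53 against 5.15 for the squamous list, whereas the endothelial and capillary lists are lower and the complement list higher in all 3 irradiated arrays.

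In all, 664 of 12412 genes were called, 5.35% of those tested; 371 (2.99%) rose and 293 (2.36%) fell in irradiated lung. The 3 irradiated and 3 untreated arrays did not overlap in 653 of the 664, whereas over all genes 11.7% had every irradiated array above every untreated one and 12.5% had the reverse. Over all 12412 genes the log2 fold changes had a median of -0.014. Against untreated array 2 alone, 33 genes were called (0.266%), 19 higher and 14 lower, and 29 of them were among the 664. The median standard error was then 0.222 instead of 0.157. The direction of all 664 was the same in both fits. For the 653 without overlap this was fixed in advance, since untreated array 2 is a control in both. Of the 664 log2 fold changes, 565 differed by no more than 1.5 times, 95 were smaller by more than that and 4 larger. The number called also depended on single arrays. It was 219 without irradiated array 1, 221 without untreated array 1 and 290 without untreated array 3, against 416, 731 and 682 without irradiated array 2, irradiated array 3 and untreated array 2.

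**Figure D2:**
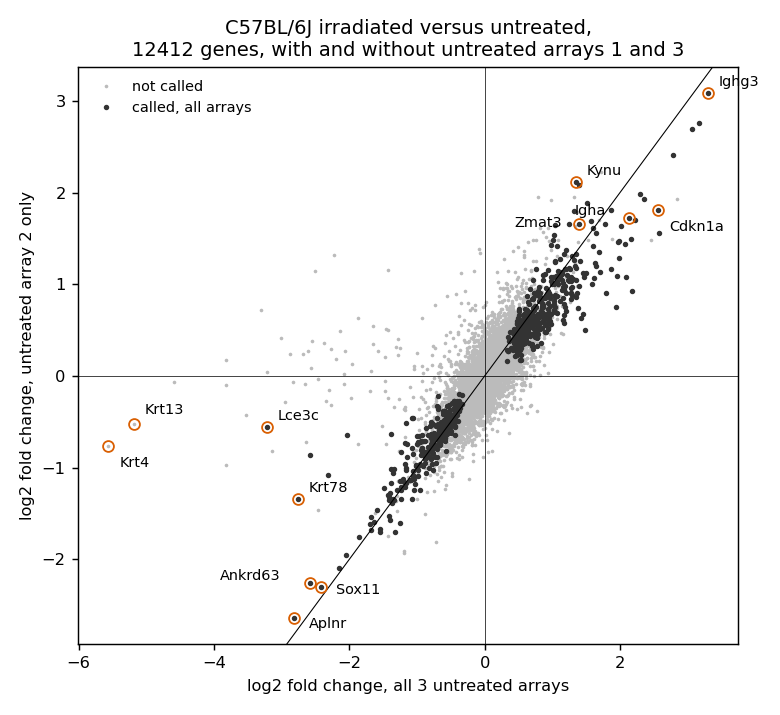
Log2 fold change of each of 12412 genes in irradiated over untreated C57BL/6J lung, with all 3 untreated arrays (x axis) and with untreated array 2 alone (y axis); black points were called with all arrays, the diagonal is equality, and 12 genes are named. Igha, Ankrd63 and Sox11 lie near the diagonal, while Krt4 and Krt13 move from -5.56 and -5.18 to -0.76 and -0.53.

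Genes of the p53 response rose in the irradiated lungs, months after exposure. Of 28 tested p53 target genes 10 rose and none fell; the list's median was 0.26, and 0.23 against untreated array 2 alone, where Cdkn1a, Zmat3, Ccng1 and Sesn2 were still called. Cdkn1a encodes p21, the inhibitor of cyclin-dependent kinases through which p53 stops the cell cycle. Its level was 10.35, 10.29 and 10.18 in irradiated arrays 1, 2 and 3 and 7.39, 8.46 and 7.26 in untreated arrays 1, 2 and 3. The irradiated values lay within a narrow band far above the untreated ones, of which untreated array 2 was the highest. The log2 fold change was 2.57 ± 0.28, a 5.94-fold rise (limma adjusted p = 0.000109), and 1.81 against untreated array 2 alone (adjusted p = 0.0318). Zmat3, a zinc finger RNA-binding protein, had 7.90, 7.96 and 7.87 in the irradiated and 6.66, 6.25 and 6.63 in the untreated arrays. It rose by 1.40 ± 0.13 (limma adjusted p = 5.43e-05) and by 1.66 without untreated arrays 1 and 3 (adjusted p = 0.0019), where no other gene had a lower adjusted p.

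Other p53 targets also rose. Psrc1, a spindle protein, rose by 1.65 ± 0.24 and Trp53inp1, a stress-induced autophagy regulator, by 0.92 ± 0.15, and both calls held with any 1 array left out. Sesn2, a sestrin that restrains growth signalling under stress, had 6.04, 5.95 and 6.22 in the irradiated and 5.88, 4.42 and 4.78 in the untreated arrays. There untreated array 1 lay just below the irradiated range and the other untreated arrays far lower. Sesn2 rose by 1.04 ± 0.29 with all arrays (limma adjusted p = 0.0485) and by 1.65 against untreated array 2 alone; leaving out any 1 array other than untreated array 1 ended its call, with log2 fold changes of 0.74 to 1.47 over the 6 such fits. The death receptor Eda2r (0.94), the pro-apoptotic Pmaip1 (0.89), Phlda3 (0.76), a brake on Akt, the exonuclease gene Aen and the cyclin gene Ccng1 (0.72) made up the rest. Mdm2, the ligase that degrades p53, had 7.51, 7.39 and 7.61 in the irradiated and 6.92, 7.42 and 7.11 in the untreated arrays and was not called. With 1 array left out between 6 and 9 of the list's genes rose, fewest without untreated array 3, and none fell except 1 gene without untreated array 2; on unscaled intensities 3 rose. Of 28 cell-cycle genes none was called by limma, with 4 higher and 0 lower at an unadjusted p below 0.05, and Mki67, a marker of dividing cells, had 6.17, 7.09 and 6.61 and 5.73, 6.57 and 5.98. Of 24 DNA repair genes 2 rose, Rad54l, of homologous recombination, and Prkdc, of end joining, and the list's median was 0.06. The call of Rad54l was lost without irradiated array 2 or untreated array 3 (0.53 to 0.88 with 1 array left out). That of Prkdc was lost without irradiated array 1 or 2 or untreated array 1 (0.39 to 0.61). Leaving out 1 array ended at least once the calls of Eda2r (0.76 to 1.05), Pmaip1 (0.74 to 1.12) and Phlda3 (0.63 to 0.89), with the log2 fold changes over the 6 such fits in parentheses. The value against untreated array 2 alone was 0.48 for Pmaip1 and was not called.

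The promoter of Cdkn1a is shown because it led the p53 list. The letters CATGNNNNNNCATG, which hold the paired CATG cores at the spacing of a p53 site, were searched on both strands in the RefSeq windows of 300 bases (250 before and 50 after a gene's start, build GRCm38.p6). They were found in 0.833% of the 27025 genes with a window and, of the 21 p53 targets tested that have one, in Cdkn1a only. RefSeq lists 2 windows for Cdkn1a and the match lies in the upstream one, from 48 to 35 bases before that start. The stretch at chr17:29090871-29090978, plus strand, is printed with the matched letters in capitals.
Cdkn1a: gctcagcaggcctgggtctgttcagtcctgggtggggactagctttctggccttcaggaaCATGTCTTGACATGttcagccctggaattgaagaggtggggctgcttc
The match is a description of these letters and not evidence of binding in these lungs.

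Antibody genes gave the largest rises. Of 15 tested immunoglobulin genes 9 rose and none fell, the median log2 fold change was 2.13, and all 15 were positive. Against untreated array 2 alone the median was 1.49. All 15 were positive there too, which was fixed in advance for the 14 whose groups did not overlap. Probe sets for immunoglobulin segments share sequence between genes, so single V genes are uncertain. Igha, the constant region of IgA, the antibody of mucosal secretions, had 12.14, 12.16 and 11.94 in the irradiated and 9.79, 10.36 and 9.70 in the untreated arrays. No value overlapped, and untreated array 2 was again the highest of its group. Igha rose by 2.13 ± 0.23 (limma adjusted p = 0.000109), by 1.72 against untreated array 2 alone (adjusted p = 0.0394), and its call held under every alternative run. Ighg3, of an IgG subclass, had 9.83, 9.97 and 8.06 and 6.16, 6.20 and 5.59. Irradiated array 3 was thus well below the other irradiated arrays. The log2 fold change of Ighg3 was 3.30 ± 0.72 (adjusted p = 0.0172, limma), the largest rise among called genes at 9.87-fold. It lost its call without irradiated array 1 or 2 or untreated array 1 or 3, over a range of 2.96 to 3.92 with 1 array left out. The light-chain segments Iglv1 (3.17), Igkv9-120 (3.06) and Igkv6-14 (2.79) also rose; their values against untreated array 2 alone, 2.75, 2.70 and 2.42, were not called. Ighm, of IgM, had 12.76, 12.46 and 12.43 in the irradiated and 10.60, 12.05 and 10.54 in the untreated arrays; its log2 fold change of 1.49 ± 0.36 shrank to 0.50 without untreated arrays 1 and 3.

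Genes of antibody secretion rose beside the immunoglobulins. Of 17 plasma-cell genes 5 rose and none fell. Jchain, the chain that joins IgA and IgM into polymers, had 11.72, 11.61 and 11.54 in the irradiated and 8.64, 10.06 and 8.43 in the untreated arrays and rose by 2.58 ± 0.40 (limma adjusted p = 0.00218). The others were the coactivator Pou2af1 (1.80), the endoplasmic reticulum proteins Mzb1 (1.45) and Derl3 (1.42), and the elongation factor Eaf2 (0.93). Of 20 B-cell genes 4 rose, namely Cd72 (1.25), Blnk (0.79), the BAFF receptor Tnfrsf13c (0.70) and Cd37 (0.54), while Ms4a1, which encodes CD20, had 7.39, 7.72 and 7.09 and 6.41, 7.59 and 6.98 and was not called. These lists depended on the untreated arrays. The B-cell list's mean level was 6.13 and 6.14 in untreated arrays 1 and 3 but 6.60 in untreated array 2, within the irradiated range of 6.48 to 6.89, and its median log2 fold change was 0.41 with all arrays and 0.047 against untreated array 2 alone. With 1 array left out, 5 to 10 immunoglobulin, 2 to 7 plasma-cell and 1 to 6 B-cell genes rose, fewest in each list without untreated array 1. The immunoglobulin count was also 5 without untreated array 3 and 6 without irradiated array 1 or 2, the plasma-cell count also 2 without irradiated array 1 or 2 and 3 without untreated array 3, and the B-cell count also 1 without irradiated array 1, irradiated array 2 or untreated array 3. The part of the squamous and muscle signal of untreated arrays 1 and 3 in this was not tested. Of 31 T and NK cell genes 3 rose, Gzmk (1.38), the IL-7 receptor Il7r (1.16) and Cd28 (0.82), and the transcription factor Gata3 fell by 1.24; the list's median was 0.24, and -0.12 against untreated array 2 alone, and 1 gene rose without irradiated array 1, untreated array 1 or untreated array 3. Cxcl13, the chemokine that draws B cells into follicles, rose by 1.62 ± 0.39, and Tnfsf13b, the B-cell survival factor BAFF, by 0.61 ± 0.15. The fits with 1 array left out did not all keep the calls of Mzb1 (1.24 to 1.84), Derl3 (0.91 to 1.81), Eaf2 (0.80 to 1.06), Blnk (0.68 to 0.95), Tnfrsf13c (0.58 to 0.88), Cd37 (0.41 to 0.69), Gzmk (1.03 to 1.70), Cd28 (0.72 to 0.97), Gata3 (-1.48 to -1.08), Cxcl13 (1.16 to 2.04) and Tnfsf13b (0.53 to 0.71), with the log2 fold changes over the 6 such fits in parentheses. Log2 fold changes against untreated array 2 alone were 1.56 for Jchain, 0.90 for Pou2af1, 0.67 for Mzb1, 0.63 for Derl3, 0.74 for Gzmk, 0.50 for Blnk, 0.51 for Cd28, 0.35 for Tnfrsf13c and 0.23 for Cd37, each more than 1.5 times smaller and none called.

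Genes induced by type I interferon, the family of antiviral cytokines, rose together. Of 31 tested 11 rose and none fell, 17 had every irradiated array above every untreated one, and the median was 0.45 with all arrays and 0.48 against untreated array 2 alone, where 28 of 31 were positive and none was called. Over all genes tested 11.7% had every irradiated array above every untreated one, and 2.99% were called higher. Ifit1, which binds viral RNA caps, had 8.24, 8.44 and 8.20 in the irradiated and 6.83, 7.39 and 6.84 in the untreated arrays. The irradiated values stood together, and the highest untreated one, array 2, was below them. Ifit1 rose by 1.27 ± 0.20 (limma adjusted p = 0.00267) and Ifit3 by 1.02 ± 0.16, with calls that held when any 1 array was left out. The nucleic-acid sensor Zbp1 (1.28), the GTPase Mx1 (1.23), Oasl2 (1.21) and Oas2 (1.04) of the oligoadenylate synthetase family, and the regulator Irf7 (1.18) were of like size, and Oas1a rose by 0.76 ± 0.21 (adjusted p = 0.0481, limma), with 0.48 against untreated array 2 alone, not called. With 1 array left out 5 genes of the list rose without untreated array 1, 6 without irradiated array 1 or untreated array 3, 7 without irradiated array 2, and 9 to 11 otherwise. Among 23 genes induced by interferon gamma 4 rose, among them Cxcl9, a chemokine for activated T cells, with 6.19, 5.49 and 5.96 in the irradiated and 3.10, 4.95 and 3.03 in the untreated arrays. Its rise of 2.18 ± 0.39 shrank to 0.93 against untreated array 2 alone. The interferon gamma count was 1 without irradiated array 1, untreated array 1 or untreated array 3, and 2 without irradiated array 2. Of 15 genes for MHC class I limma called none, with 2 higher and 0 lower at an unadjusted p below 0.05, and 1 of 11 in the class II list, the protease Ctss. At least 1 fit with an array left out lost the calls of Oas2 (0.82 to 1.21), Irf7 (1.05 to 1.37) and Oas1a (0.55 to 0.94), with the log2 fold changes over the 6 such fits in parentheses.

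The interferon promoters are shown because part of the called genes have a known response element there. The letters GAAANNGAAA, the core of an interferon-stimulated response element, were searched on both strands and are in 3.99% of all genes with a window. They are in 11 of the 20 listed interferon genes with a window, and in Ifit1, Ifit3 and Oas1a of the 6 called ones with a window. Each of the 3 has 2 matches before its start, overlapping in Oas1a, and they are printed in capitals, in the sense of the gene. The stretches are chr19:34640725-34640873 (plus) for Ifit1, chr19:34583313-34583476 (plus) for Ifit3 and chr5:120907526-120907605 (minus) for Oas1a, RefSeq GRCm38.p6.
Ifit1: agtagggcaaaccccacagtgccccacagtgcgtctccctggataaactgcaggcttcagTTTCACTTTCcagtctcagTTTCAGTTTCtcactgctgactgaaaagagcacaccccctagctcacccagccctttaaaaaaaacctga
Ifit3: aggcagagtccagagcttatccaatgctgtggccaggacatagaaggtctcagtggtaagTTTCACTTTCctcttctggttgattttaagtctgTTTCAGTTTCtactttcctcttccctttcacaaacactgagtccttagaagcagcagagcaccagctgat
Oas1a: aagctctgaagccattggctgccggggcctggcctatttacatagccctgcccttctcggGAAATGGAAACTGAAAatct
In Ifit1 and Ifit3 the capitals read as the reverse complement of the searched letters. The matches say nothing of whether the element was bound in these lungs.

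Acute-phase and complement genes encode proteins that the liver and local cells secrete during inflammation. Of 21 acute-phase genes 13 rose, none fell, and the median was 0.61 (0.63 against untreated array 2 alone, with none called). Saa3, a serum amyloid A made in macrophages and epithelium, had 9.51, 8.19 and 7.76 in the irradiated and 6.63, 6.85 and 5.93 in the untreated arrays. Irradiated array 1 was the highest, yet all 3 lay above the untreated range, and the rise was 2.01 ± 0.33 (limma adjusted p = 0.00326). Lcn2, which withholds iron-carrying siderophores from bacteria, had 12.01, 11.39 and 10.83 and 9.83, 10.28 and 9.63 and rose by 1.49 ± 0.24. The glycoproteins Orm1 (1.98) and Lrg1 (1.31), the fibrinogen chain Fgg (1.94), the protease inhibitor Serpina3n (1.27) and the metallothioneins Mt2 (1.17) and Mt1 (0.94) followed; Fgg shrank to 0.75 against untreated array 2 alone. The 13 became 6 without irradiated array 1 and 7 without untreated array 1 or 3. Not every fit with 1 array left out kept the calls of Orm1 (1.30 to 2.44), Mt2 (0.88 to 1.47) and Mt1 (0.71 to 1.14), with the log2 fold changes over the 6 such fits in parentheses. Set against untreated array 2 alone, the differences were 0.52 for Mt1 and 0.58 for Mt2, neither called.

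Of 22 complement genes 8 rose and none fell, with 20 positive, a median of 0.69, and 0.76 against untreated array 2 alone. C1qc, a chain of the C1q recognition molecule that macrophages make, had 9.80, 9.06 and 8.63 in the irradiated and 7.47, 7.74 and 7.48 in the untreated arrays. Its rise was 1.60 ± 0.28 (adjusted p = 0.00509, limma). C1qb (1.19), the alternative-pathway components Cfp (1.00) and Cfb (0.90), the anaphylatoxin receptor C5ar1 (0.95), C2 (0.79), C1ra (0.73) and Masp1 (0.65) also rose. The calls of C1qc, C1ra, C2, Cfp and Masp1 held with each array left out; the list's count was 5 without irradiated array 1, irradiated array 2 or untreated array 3. Leaving out 1 array ended at least once the calls of C1qb (0.81 to 1.51), Cfb (0.65 to 1.15) and C5ar1 (0.80 to 1.08), with the log2 fold changes over the 6 such fits in parentheses.

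Macrophage genes rose unevenly over the irradiated arrays. Gpnmb, a membrane glycoprotein of lipid-laden macrophages, had 9.96, 8.65 and 7.73 in irradiated arrays 1, 2 and 3 and 6.49, 6.85 and 5.93 in the untreated arrays, a rise of 2.36 ± 0.44 (limma adjusted p = 0.00673) that held with any 1 array left out. Trem2, a lipid receptor of such cells, had 7.73, 6.03 and 5.47 against 4.58, 4.60 and 4.46. Irradiated array 1 was far above the other irradiated arrays and the untreated values were nearly alike; the rise of 1.86 ± 0.48 (adjusted p = 0.0335, limma) was lost without irradiated array 1 or 2 or any untreated array, with values from 1.20 to 2.33. In the list of lipid-laden and scar macrophages 6 of 31 rose, with Apoe (1.14), Lgmn (0.92), Ctss (0.87) and the lipid-droplet protein Plin2 (0.67), and 28 were positive. Its mean level was 9.95, 9.36 and 8.99 in irradiated arrays 1, 2 and 3 and 8.69 to 8.85 in the untreated arrays. The count was 1 without irradiated array 1, 2 without untreated array 1, 3 without untreated array 3 and 16 without irradiated array 3. Of 21 genes of monocytes and macrophage growth 9 rose, among them Ms4a7, a membrane protein of tissue macrophages, with 8.00, 7.60 and 6.90 against 6.14, 5.89 and 5.68 (1.60 ± 0.28; 1.61 against untreated array 2 alone), Aif1, an actin-bundling macrophage protein (1.40), the inhibitory Fc receptor Fcgr2b (1.28), the costimulator Cd86 (1.28) and the high-affinity Fc receptor Fcgr1 (1.14). The growth factor Csf1 fell by 0.44, a call lost whichever array was left out. The 9 became 3 without irradiated array 1, untreated array 1 or untreated array 3. Of 17 genes of alternatively activated macrophages 2 rose, Retnla and the lectin Clec10a (0.80), and the scavenger receptor Stab1 fell by 0.46. The call of Clec10a held only without irradiated array 3 (0.62 to 1.04 with 1 array left out) and that of Stab1 only without untreated array 2 (-0.51 to -0.43). Of the 17, 5 were negative, and the median of 0.27 became -0.03 without irradiated array 1. Retnla, a secreted marker of alternative activation, had 11.49, 10.66 and 10.75 and 9.04, 9.62 and 9.19 and rose by 1.68 ± 0.23 (limma adjusted p = 0.000979). In the alveolar macrophage list 1 of 14 rose, Mertk, a receptor for dying cells. Its call was lost without irradiated array 1 or 3 or untreated array 1 or 3 (0.43 to 0.58). The fits with 1 array left out did not all keep the calls of Apoe (0.91 to 1.34), Lgmn (0.60 to 1.17), Ctss (0.61 to 1.12), Plin2 (0.60 to 0.77), Fcgr2b (0.91 to 1.55), Cd86 (0.96 to 1.49), Fcgr1 (0.85 to 1.41) and Csf1 (-0.47 to -0.42), with the log2 fold changes over the 6 such fits in parentheses. With untreated array 2 alone as the control, the value was 0.84 for Cd86 and was not called.

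Of 27 chemokines 7 rose and 2 fell. Ccl8, a ligand that draws monocytes and T cells, had 9.55, 8.82 and 8.39 in the irradiated and 6.57, 7.22 and 6.30 in the untreated arrays and rose by 2.22 ± 0.42. Cxcl13, Cxcl9, Ccl9 (1.35), Ccl12 (1.18), Ccl6 (1.04) and the neutrophil attractant Cxcl5 (1.03) were the other rises; Cxcl5 was dim at 4.49, 3.75 and 4.02 against 3.13, 2.83 and 3.21. The platelet chemokine Pf4 fell by 0.78 and the membrane-bound Cx3cl1 also fell. The rises numbered 2 without irradiated array 1 or untreated array 3, 3 without untreated array 1 and 4 without irradiated array 2. Of 18 neutrophil genes 1 rose, Cd177, a surface glycoprotein of neutrophils, which had 8.70, 8.01 and 7.74 in the irradiated and 5.56, 6.17 and 5.86 in the untreated arrays. It rose by 2.29 ± 0.24 (limma adjusted p = 9.6e-05), by 1.98 against untreated array 2 alone (adjusted p = 0.0318), and its call held under every alternative. The abundant neutrophil gene S100a8 had 10.52, 10.35 and 10.74 and 10.84, 10.71 and 10.39, overlapping, and was not called; the list's median was -0.056. Of 16 cytokines limma called none higher, with 2 higher at an unadjusted p below 0.05, and Csf1 lower; Il6 had 4.40, 4.06 and 3.50 and 2.91, 3.84 and 3.47, a difference of 0.58 ± 0.41. Of 12 mast cell and basophil genes 1 rose and 1, Kit, fell, with 8 positive, 4 negative and a median of 0.24. The one that rose, the carboxypeptidase Cpa3, had 6.50, 5.55 and 5.49 against 3.28, 4.78 and 3.22 and rose by 2.09 ± 0.47, a call lost without irradiated array 1 or untreated array 1 or 3 (1.77 to 2.60); against untreated array 2 alone the value was 1.07. At least 1 fit with an array left out lost the calls of Ccl9 (0.93 to 1.76), Ccl12 (0.83 to 1.53), Ccl6 (0.87 to 1.27), Cxcl5 (0.83 to 1.20) and Pf4 (-0.88 to -0.70), with the log2 fold changes over the 6 such fits in parentheses.

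Matrix genes rose at shares of 10.3% for fibrillar collagens and crosslinking, 9.09% for basement membrane and 7.14% for matricellular and elastic-fibre genes. Over all genes tested the share was 2.99%, and the counts were small. Of 29 genes for fibrillar collagens and their crosslinking 3 rose and none fell, a share of 10.3%, and the median was 0.11. Lox, the enzyme that crosslinks collagen and elastin, had 9.85, 8.87 and 8.40 in the irradiated and 6.96, 7.97 and 7.33 in the untreated arrays and rose by 1.62 ± 0.30 (limma adjusted p = 0.00563). Col3a1 had 11.36, 10.96 and 10.32 against 10.22, 10.09 and 10.35, so irradiated array 3 lay inside the untreated range while irradiated array 1 was the highest. Its rise of 0.66 ± 0.18 (adjusted p = 0.0477, limma) was lost on leaving out any array but irradiated array 3, with values of 0.42 to 0.94. Col5a2 rose by 0.96 ± 0.26, likewise lost without irradiated array 1 or 2 or untreated array 1 or 3 (0.58 to 1.33). Col1a1, the main collagen of scar, had 8.62, 8.11 and 7.35 and 7.45, 7.40 and 7.72, overlapping, and was not called (adjusted p = 0.228, limma). Fibronectin, Fn1, had 10.88, 10.40 and 10.08 against 9.64, 9.54 and 9.83 and rose by 0.78 ± 0.15, and Ltbp2, of elastic microfibrils, by 0.98 ± 0.15, both with any 1 array left out; these were the 2 rises among 28 matricellular and elastic-fibre genes, where Ltbp4 fell by 0.67. The basement membrane chains Col4a1 (0.64) and Col4a2 (0.54) were the 2 of 22 that rose. Not every fit with 1 array left out kept the calls of Ltbp4 (-0.85 to -0.45), Col4a1 (0.50 to 0.75) and Col4a2 (0.42 to 0.61), with the log2 fold changes over the 6 such fits in parentheses. Without untreated arrays 1 and 3 the value was 1.07 for Lox, not called.

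Proteases and their inhibitors were a broader group, with 8 of 24 higher and none lower and a median of 0.40 (0.44 against untreated array 2 alone). Mmp2, a gelatinase of fibroblasts, had 9.25, 8.77 and 8.54 in the irradiated and 7.82, 7.85 and 7.83 in the untreated arrays. The untreated values were nearly identical, and the rise was 1.02 ± 0.15 (limma adjusted p = 0.00136). Adam8 (1.20), a leukocyte sheddase, Mmp14 (0.97), the activator of Mmp2, and Adamts15 (0.96), which cleaves proteoglycans, also rose. So did the plasminogen activator Plat, the urokinase receptor Plaur, the inhibitor Timp3 and Ctss. With 1 array left out, some fits lost the calls of Plat (0.40 to 0.59), Plaur (0.45 to 0.58), Timp3 (0.36 to 0.45) and Ctss (0.61 to 1.12). The macrophage elastase Mmp12 had 9.06, 8.01 and 6.70 against 6.38, 5.70 and 6.54 and the inhibitor Timp1 8.10, 7.05 and 6.28 against 6.26, 6.45 and 5.80. In both the irradiated arrays ranged over more than the difference of the means, and neither was called (adjusted p = 0.0566 and 0.123, limma). The list's count was 3 without irradiated array 1 or untreated array 1, 4 without irradiated array 2 or untreated array 3 and 5 without untreated array 2. In the TGF-beta list, the pathway that drives fibroblasts to make matrix, 10 of 24 genes had every irradiated array higher and 2 every one lower. Over all genes tested these shares were 11.7% and 12.5%. Of the 24 genes 19 were positive and limma called none, with 10 higher and 1 lower at an unadjusted p below 0.05. Tgfb1 itself had 7.83, 7.80 and 7.50 and 7.29, 7.46 and 7.44. Its target Ccn2 had 10.83, 10.28 and 10.57 and 10.08, 10.16 and 9.999 (adjusted p = 0.0578, limma). Smooth-muscle actin, Acta2, the marker of myofibroblasts and vessel walls, fell by 0.52 ± 0.14 (limma adjusted p = 0.0481). Its call was lost without any array but irradiated array 3 (-0.66 to -0.45). Of 20 smooth-muscle and myofibroblast genes 2 fell, 1 rose and 18 were negative. Their median was -0.34, and -0.18 against untreated array 2 alone. Their mean level was 8.28, 8.02 and 8.24 in untreated and 7.70, 7.75 and 8.11 in irradiated arrays 1, 2 and 3. In the fibroblast list 4 of 26 rose (15.4%, against 2.99% of all genes tested) and 1 fell, Pdgfa, by 0.68. The rises included Igf1 (1.09), a growth factor made by macrophages and fibroblasts, and Fap (0.86), a surface protease of activated fibroblasts. The list was evenly split, with 13 positive and 13 negative members and a median of -0.004. Leaving out 1 array ended at least once the calls of Mmp14 (0.65 to 1.22), Igf1 (0.85 to 1.36) and Fap (0.65 to 1.19), with the log2 fold changes over the 6 such fits in parentheses.

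**Figure D3:**
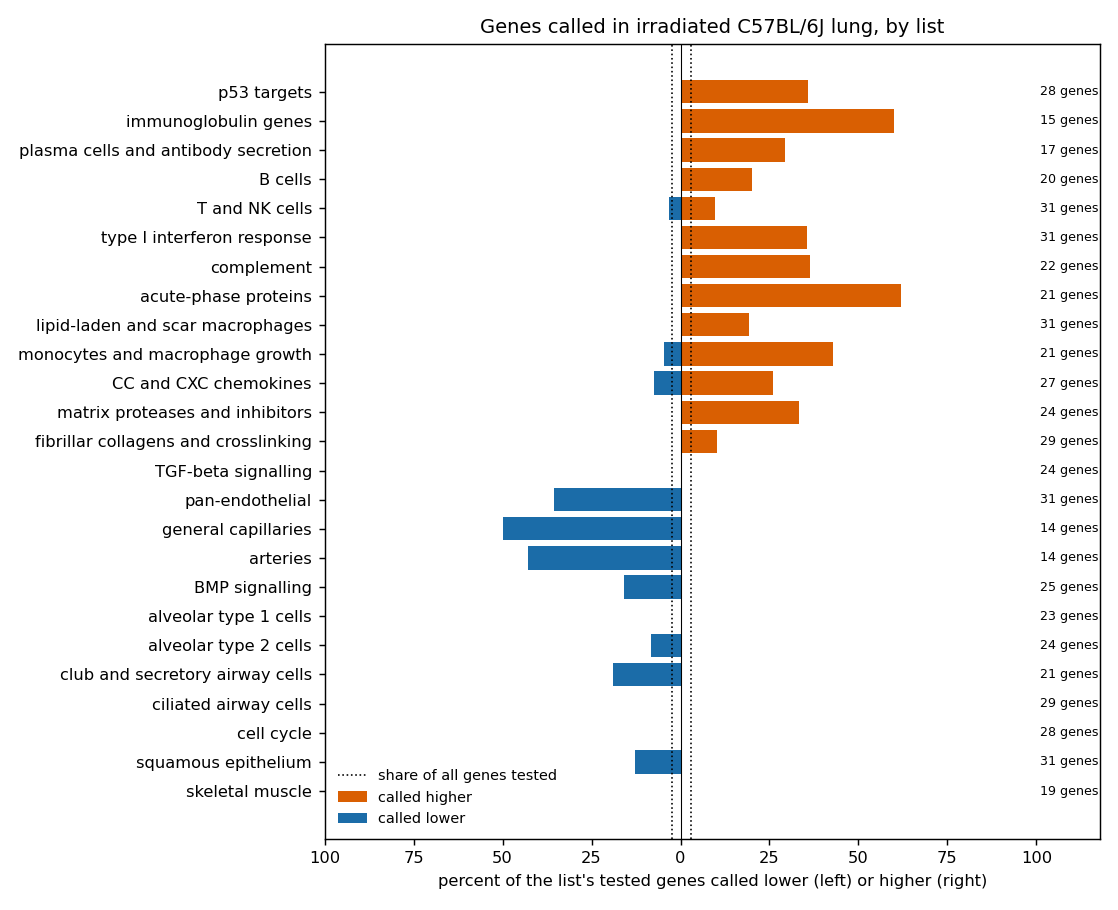
Percent of the tested genes of 25 lists that were called lower (blue, left) or higher (orange, right) in irradiated C57BL/6J lung by limma, with the number of genes tested at the right; dotted lines mark the shares over all genes, 2.36% lower and 2.99% higher. Acute-phase and immunoglobulin genes have the longest bars to the right and general capillary genes the longest to the left. The cell-cycle, type 1, ciliated, TGF-beta and skeletal muscle lists have none.

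Endothelial genes fell, among them several of the capillaries. Aplnr, the apelin receptor that marks general capillaries, had 5.51, 6.95 and 5.69 in irradiated arrays 1, 2 and 3 and 8.88, 8.68 and 9.03 in untreated arrays 1, 2 and 3. The untreated arrays, squamous-high or not, agreed closely, and every irradiated array was far below them. Aplnr fell by 2.82 ± 0.37, or 7.05-fold (limma adjusted p = 0.00063); against untreated array 2 alone the value was -2.64 and not called (adjusted p = 0.0858). Kit, the stem-cell factor receptor that general capillaries and mast cells carry, had 5.78, 6.67 and 6.84 and 8.49, 8.52 and 8.74 and fell by 2.16 ± 0.25. Bmp6, a bone morphogenetic protein that endothelium secretes, had 6.39, 6.86 and 7.38 against 8.95, 8.83 and 9.02 and fell by 2.06 ± 0.19 (adjusted p = 5.43e-05, limma). The calls of Kit and Bmp6 held under every alternative, with falls of 2.09 and 1.96 against untreated array 2 alone. In the list of general capillary genes 7 of 14 fell and none rose, with 13 negative and a median of -0.77 in both fits; the others were Glp1r (-1.35), the phosphatase Ptprb (-0.86), the lipase carrier Gpihbp1 (-0.77) and Cd93 (-0.76). The count was 4 without irradiated array 1 or untreated array 1, and 5 on unscaled intensities. The fits with 1 array left out did not all keep the calls of Glp1r (-1.65 to -1.12), Gpihbp1 (-0.86 to -0.71) and Cd93 (-0.90 to -0.52), with the log2 fold changes over the 6 such fits in parentheses.

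Of 31 pan-endothelial genes 11 fell, none rose and 27 were negative, with a median of -0.39 in both fits. Tek, the receptor of the angiopoietins, had 7.55, 8.17 and 7.97 in the irradiated and 9.51, 9.58 and 9.63 in the untreated arrays. The groups were more than a unit apart, and Tek fell by 1.68 ± 0.18 (limma adjusted p = 0.000109) and by 1.68 against untreated array 2 alone (adjusted p = 0.0318). The transcription factors Sox17 (-1.09), Sox18 (-0.93) and Sox7, the lectin Clec14a (-0.92), the adrenomedullin receptor parts Ramp2 (-0.89) and Calcrl (-0.63), Ptprb, Tal1 (-0.78), Rasip1 (-0.64) and the orphan receptor Tie1 made up the 11. Clec14a was also called against untreated array 2 alone. Sox17 lost its call whichever array was left out (-1.15 to -1.0). Other endothelial genes were not called. Pecam1, the junction protein CD31, had 9.44, 10.14 and 9.91 and 9.65, 9.91 and 9.93 (limma adjusted p = 0.997), and Cdh5, VE-cadherin, had 7.78, 8.36 and 8.50 and 8.76, 8.45 and 8.85 and was not called. The pan-endothelial count was 5 without irradiated array 1, untreated array 1 or untreated array 3, and with each array centred on its median it was 6 and on unscaled intensities 1. At least 1 fit with an array left out lost the calls of Ramp2 (-1.07 to -0.64), Calcrl (-0.71 to -0.57) and Rasip1 (-0.74 to -0.51), with the log2 fold changes over the 6 such fits in parentheses.

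Arterial genes fell too, 6 of 14 with none higher and a median of -0.50. Hey1, a Notch target, had 6.72, 7.13 and 7.36 in the irradiated and 8.39, 8.44 and 8.51 in the untreated arrays and fell by 1.38 ± 0.17. The ephrin Efnb2 (-1.34), Sox17, the connexin Gja4 (-1.05), the Notch ligand Dll4 (-0.89) and Ltbp4 were the others. In the venous and activated list 2 of 16 rose, the chemokine scavenger Ackr3 (0.68) and Lrg1, and the ephrin receptor Ephb4 fell by 0.88. In the list for aerocytes, the large capillary cells of gas exchange, 2 of 17 rose, Apln (0.64), the ligand of Aplnr, and Igfbp7 (0.35). Most of that list leaned the other way, with 11 of 17 negative and a median of -0.17. At an unadjusted limma p below 0.05, 2 of its genes were higher and 4 lower. Apln had 7.78, 8.22 and 8.03 in the irradiated and 7.33, 7.45 and 7.34 in the untreated arrays, so ligand and receptor moved in opposite directions. In the wider list of VEGF, angiopoietin and apelin signalling 4 of 24 rose, with adrenomedullin Adm (1.36), its receptor part Ramp3 (0.73) and Angptl4 (1.18) beside Apln, and 5 fell; with 1 array left out 1 to 4 rose and 2 to 5 fell. Only 1 rose and 2 fell without untreated array 1 or untreated array 3, and 2 rose and 2 fell without irradiated array 1. Of 25 genes of BMP signalling 4 fell and 21 were negative, with a median of -0.29 (-0.19 against untreated array 2 alone). Besides Bmp6 and Hey1 these were the targets Smad6 (-0.94) and Id3 (-0.88), and between 4 and 6 of them fell with each array left out. Of 7 lymphatic genes 2 fell, Mmrn1 (-0.70) and Stab1 (-0.46). The platelet glycoproteins Gp9 (-1.41) and Gp1bb (-0.87) were the 2 of 5 blood genes that fell. Of 14 pericyte genes limma called none, with 1 higher and 1 lower at an unadjusted p below 0.05. Not every fit with 1 array left out kept the calls of Ackr3 (0.57 to 0.84), Igfbp7 (0.29 to 0.43), Adm (1.08 to 1.59), Ramp3 (0.50 to 0.87), Angptl4 (0.92 to 1.52), Mmrn1 (-0.82 to -0.63), Stab1 (-0.51 to -0.43), Gp9 (-1.82 to -1.19) and Gp1bb (-1.04 to -0.77), with the log2 fold changes over the 6 such fits in parentheses. Untreated array 2 alone gave 0.91 for Adm and 0.46 for Ramp3, neither called.

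**Figure D4:**
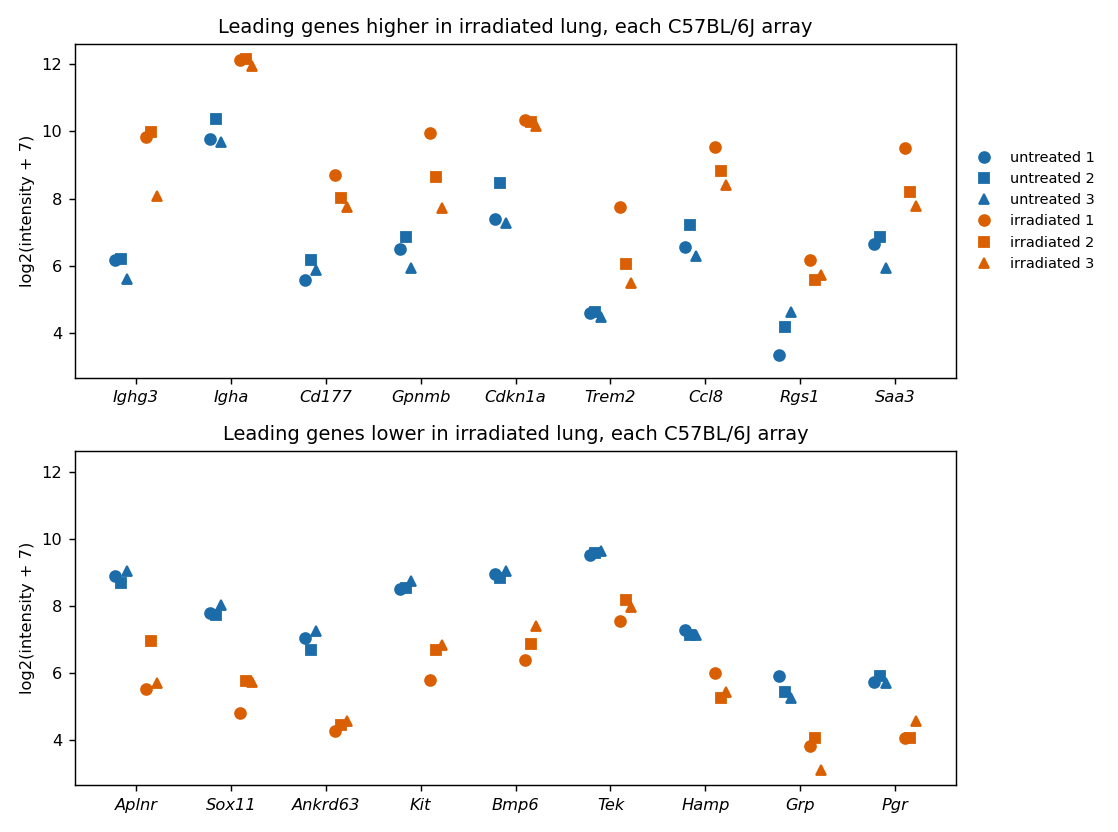
Level, in log2(intensity + 7), of 9 leading genes that rose (top) and 9 that fell (bottom) in irradiated C57BL/6J lung, one symbol per array; blue is untreated, orange irradiated, and circle, square and triangle are arrays 1, 2 and 3. The groups overlap for none of the 18 genes because only genes without overlap were eligible. Trem2 and Gpnmb are highest in irradiated array 1, and Aplnr and Tek have untreated values close together.

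No type 1 alveolar gene was called, and 8.33% of type 2 genes fell, against 2.36% of all genes tested. Ager, the receptor that marks type 1 cells, had 12.72, 12.68 and 12.70 in the irradiated and 12.87, 12.78 and 12.72 in the untreated arrays, and limma called none of 23 type 1 genes, with 2 higher and 2 lower at an unadjusted p below 0.05. The surfactant gene Sftpb had 11.57, 11.74 and 11.67 and 11.86, 11.81 and 11.93 and was not called. Of 24 type 2 genes 2 fell, the peroxisomal oxidase-like Acoxl and the chitinase Chia1. With 1 array left out, the call of Chia1 held only without untreated array 2 (-1.03 to -0.69). Acoxl had 5.02, 7.24 and 7.22 against 8.19, 7.96 and 8.11. Irradiated array 1 was far below the other irradiated arrays, and the fall of 1.59 ± 0.44 (limma adjusted p = 0.0497) was lost without irradiated array 1 or any untreated array (-1.96 to -0.85). In the list of transitional epithelium, cells between type 2 and type 1, 3 of 19 rose, among them the growth factor Mdk with 6.56, 6.76 and 6.48 against 5.57, 5.75 and 5.57 (0.97 ± 0.16); the other 2, Cdkn1a and Plaur, are also in lists above. Tm4sf1 fell in the same list, a call lost without irradiated array 1 or 2 or untreated array 1 (-0.52 to -0.39). Of 29 ciliated-cell genes limma called none, with 2 higher and 1 lower at an unadjusted p below 0.05. Chia1 was at -0.56 against untreated array 2 alone, not called.

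Airway secretory genes fell in part, 4 of 21 with none higher and 15 negative. Bpifa1, a secreted lipid-binding protein of the airway surface, had 10.43, 10.29 and 10.68 in the irradiated and 12.02, 11.52 and 11.92 in the untreated arrays and fell by 1.36 ± 0.28. Pon1, a paraoxonase, fell by 1.04 ± 0.24, Aox3, an aldehyde oxidase, by 0.84 ± 0.20, and Cckar, a cholecystokinin receptor, by 0.71 ± 0.16. The count was 1 without irradiated array 1 or untreated array 1. Of 19 xenobiotic genes 3 fell, Fmo1, a monooxygenase, with 8.82, 9.01 and 9.36 against 10.49, 10.36 and 10.64 (-1.43), Cyp1a1 (-1.48) and Aox3, and Cyp2e1 rose by 0.74. Gsta2, a glutathione transferase, had 6.79, 6.76 and 6.56 in the irradiated and 8.07, 8.04 and 7.69 in the untreated arrays. It fell by 1.24 ± 0.12 (limma adjusted p = 9.52e-05) and by 1.34 against untreated array 2 alone (adjusted p = 0.00502). In the same list of 21 antioxidant genes Gstm1 fell by 0.58, whereas Gclc (0.61) and Gclm (0.54), the subunits that start glutathione synthesis, and Txnrd1 (0.47) rose. Leaving out 1 array ended at least once the calls of Bpifa1 (-1.51 to -1.26), Pon1 (-1.21 to -0.79), Aox3 (-0.91 to -0.74), Cckar (-0.78 to -0.58), Cyp1a1 (-1.70 to -1.16), Cyp2e1 (0.63 to 0.89), Gstm1 (-0.66 to -0.47), Gclc (0.55 to 0.70), Gclm (0.51 to 0.59) and Txnrd1 (0.39 to 0.54), with the log2 fold changes over the 6 such fits in parentheses.

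In 6 called genes the log2 fold change shrank furthest without untreated arrays 1 and 3. They were the cornified-envelope genes Lce3c, from -3.22 to -0.56, Lce3b, from -2.58 to -0.87, and Lce1b, from -2.04 to -0.65, the keratin Krt78, from -2.76 to -1.34, the atrial natriuretic peptide Nppa, from -2.32 to -1.08, and Cxcl9. Of 31 squamous genes 4 fell with all arrays, 20 did without untreated array 2 and none without untreated array 1 or 3. The skeletal muscle list had a median of -1.42 with no gene called by limma (0 higher and 7 lower at an unadjusted p below 0.05), and 0.41 against untreated array 2 alone. The median of the mesothelial list changed sign in the same way, from -0.35 to 0.36. Of 9 fat and 3 thymus genes limma called none, with 0 at an unadjusted p below 0.05 in either list. No gene of the liver list was tested, and of 7 nerve genes S100b and Uchl1 rose. The call of S100b was lost without irradiated array 1 or 2 or untreated array 2 or 3 (0.88 to 1.29). That of Uchl1 was lost without irradiated array 2 or untreated array 1 or 3 (0.61 to 0.72). Among 23 genes of the cardiac muscle that sheathes the pulmonary veins 4 fell and the peptide Nppb rose by 1.39 ± 0.32. Without untreated array 1 or 3 none fell. The call of Nppb was lost without irradiated array 1 or 2 or untreated array 1 or 2 (1.04 to 1.62). Squamous and cardiac falls were thus called, over the fits that left out 1 array, only where untreated arrays 1 and 3 both stood among the controls; their part in other results was not tested.

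Several leading genes stood outside these lists or nearly alone in theirs. Sox11, a transcription factor of the developing nervous system, had 4.82, 5.77 and 5.72 in the irradiated and 7.78, 7.73 and 8.04 in the untreated arrays and fell by 2.42 ± 0.27. Ankrd63, an ankyrin-repeat protein, had 4.26, 4.43 and 4.55 against 7.05, 6.68 and 7.24 and fell by 2.57 ± 0.23 (limma adjusted p = 5.43e-05). Both calls held under every alternative in which these genes were tested. Untreated C57BL/6J lung was high in both, since their mean levels in untreated A/J and C3H/HeJ lung were 4.12 and 4.20 for Sox11 and 3.66 and 3.87 for Ankrd63. Hamp, which encodes hepcidin, the hormone that limits iron export, had 5.98, 5.25 and 5.42 and 7.29, 7.14 and 7.13 and fell by 1.64 ± 0.18, also under every alternative. Grp, the bombesin-like peptide of neuroendocrine cells, had 3.83, 4.06 and 3.11 against 5.91, 5.43 and 5.25 and fell by 1.86 ± 0.30. Lypd2, a small anchored protein, fell by 1.70 ± 0.26, the progesterone receptor Pgr by 1.55 ± 0.30, Bex2 by 1.68 ± 0.34, and Fitm1, a lipid-droplet protein, by 1.54 ± 0.43 (a call lost whichever array was left out, -1.83 to -1.34). Among the rises outside the lists was Rgs1, a regulator of G-protein signalling in lymphocytes, with 6.17, 5.56 and 5.72 and 3.34, 4.16 and 4.63 (1.77 ± 0.28). Ltc4s, the enzyme that makes leukotriene C4, had 7.75, 7.46 and 6.87 against 6.16, 5.47 and 5.91; it rose by 1.51 ± 0.23 and by 1.89 against untreated array 2 alone (limma adjusted p = 0.0318), the 1 call with all arrays among 24 genes of prostaglandin and leukotriene metabolism. Fkbp5, a glucocorticoid-induced chaperone partner, rose by 1.18 ± 0.22, 1 of 5 of 17 glucocorticoid-responsive genes that did, the other 4 being in lists above. Ankrd37, a hypoxia-induced gene, rose by 1.87 ± 0.28. With Adm it made up the 2 called of 21 genes of hypoxia and glycolysis (9.52%, against 2.99% higher over all genes). That list had 7 negative members and a median of 0.13. On untreated array 2 alone the values were 1.16 for Ankrd37 and 0.75 for Fkbp5, neither called.

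Clock genes vary with the hour, and the labels do not give the hour of killing. Dbp, an output gene of the clock, had 8.11, 8.92 and 8.76 in the irradiated and 9.76, 9.62 and 9.90 in the untreated arrays and fell by 1.16 ± 0.20; Nr1d1 fell by 0.82 ± 0.21, and Nfil3 (1.29) and Bhlhe40 (0.54) rose. These were the 4 called of 18 clock genes, and the part of the hour of killing in any result was not tested. The fits with 1 array left out did not all keep the calls of Nr1d1 (-0.99 to -0.70), Nfil3 (1.14 to 1.45) and Bhlhe40 (0.40 to 0.66), with the log2 fold changes over the 6 such fits in parentheses.

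How far these changes were particular to C57BL/6J was asked by testing the difference of effects in the same limma fit. Strain went together with the time since exposure, 20 to 22 weeks in C57BL/6J, 22 to 24 in A/J and 12 to 14 in C3H/HeJ. Strain and time therefore cannot be told apart in these differences. All 3 strains' comparisons are separate arrays, but A/J irradiated array 3 also carried high squamous keratins. All 3 A/J irradiated arrays had low 5' to 3' ratios of the actin controls, 0.413, 0.551 and 0.528. On every other array of the series the ratio lay between 0.677 and 0.766. The part of this shift in the A/J differences was not tested. The A/J irradiated arrays were also low in H2-Ea, against their strain label, and what this means for the A/J differences was not tested. The effect differed from that in A/J for 677 genes (5.45%), 306 more positive and 371 more negative in C57BL/6J, and from that in C3H/HeJ for 199 (1.6%), 74 and 125. On unscaled intensities the splits were 27 against 224 and 9 against 210, and with median centring 181 against 767 and 29 against 209, so the balance of directions depends on the scaling; the median difference over all genes was -0.097 and -0.029 as normalised here, and -0.507 and -0.567 on unscaled intensities. Without the 3 squamous-high arrays (untreated C57BL/6J arrays 1 and 3 and A/J irradiated array 3) 79 of the 677 and 16 of the 199 were still called. Both differences were called for 85 genes, all 85 in the same direction; the 2 differences share the C57BL/6J arrays.

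Several of the 85 fell or rose in C57BL/6J. The log2 fold change of Ankrd63 was -2.57 in C57BL/6J, +0.21 in A/J and +0.24 in C3H/HeJ; the differences were -2.78 ± 0.32 (limma adjusted p = 0.000313) and -2.81 ± 0.32 (adjusted p = 0.000486), and both were still called without the 3 squamous-high arrays. Its untreated levels in the other strains, given above, were near the bottom of the scale. That holds also for Sox11, with differences of -1.65 ± 0.39 and -1.88 ± 0.39, neither called without the squamous-high arrays. Hamp, at -1.64 in C57BL/6J, was at 0.38 in A/J and -0.07 in C3H/HeJ, with mean untreated levels there of 6.09 and 6.68; the differences were -2.01 ± 0.25 (adjusted p = 0.000505, limma) and -1.57 ± 0.25 (adjusted p = 0.00696), the former called also without the squamous-high arrays. Igha rose more in C57BL/6J, by 1.36 ± 0.33 over A/J and 1.70 ± 0.33 over C3H/HeJ, and without the squamous-high arrays neither difference was called (1.03 and 1.29). The differences of Ighm (2.77 ± 0.52) and Igkv6-20 (2.35 ± 0.56) were called against C3H/HeJ; without the squamous-high arrays they were 1.78 and 1.68 and not called.

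Several inflammatory, matrix and mast cell genes had smaller log2 fold changes in C57BL/6J than in another strain. Timp1 had a log2 fold change of 0.98 in C57BL/6J, 2.93 in A/J and 4.20 in C3H/HeJ. The differences were -1.95 ± 0.50 (limma adjusted p = 0.0325) and -3.23 ± 0.50 (adjusted p = 0.00618), the latter called also without the squamous-high arrays. Against C3H/HeJ the differences of Il6 and Saa3 were -3.80 ± 0.58 and -2.69 ± 0.47, and that of the eosinophil chemokine Ccl24 was -2.92 ± 0.54; of these Il6 was still called without the squamous-high arrays. The log2 fold change of Col1a1 was lower by 1.73 than in A/J, a difference not called without those arrays. The mast cell tryptases Tpsab1 and Tpsb2 were at 0.31 and 1.22, not called in C57BL/6J, against 3.13 and 3.48 in A/J and 3.23 and 4.16 in C3H/HeJ. Chl1, a neural adhesion molecule, had 0.46, 2.88 and 3.29. These tryptase and Chl1 differences were called against both strains with all arrays and against neither without the squamous-high ones. Clock genes differed as well. Dbp, which fell in C57BL/6J, was at 3.54 in A/J, a difference of -4.70 ± 0.29 (adjusted p = 1.95e-07, limma), and the clock activator Arntl at 0.73 in C57BL/6J was at -2.06 and -1.41 in A/J and C3H/HeJ. The part of the hour of killing in the strain differences was not tested.

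**Figure D5:**
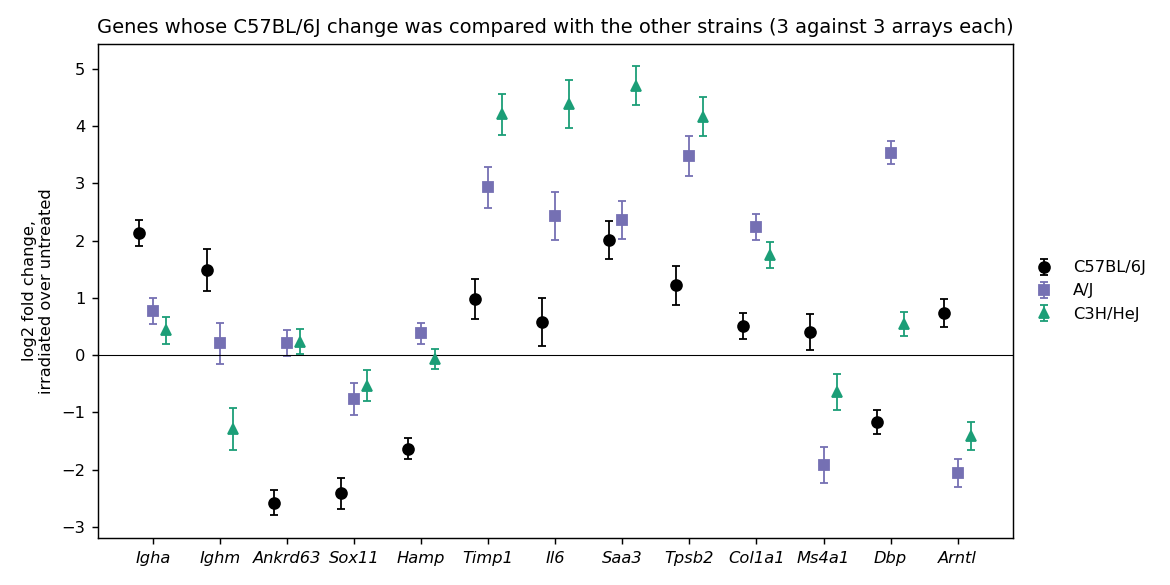
Log2 fold change of 13 genes in irradiated over untreated lung of C57BL/6J (black circles), A/J (purple squares) and C3H/HeJ (green triangles), 3 against 3 arrays in each; bars are standard errors of the limma fit. Igha is highest and Ankrd63, Sox11 and Hamp are lowest in C57BL/6J, whereas Timp1, Il6 and Tpsb2 are highest in C3H/HeJ, and Dbp and Arntl have opposite signs in C57BL/6J and A/J.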

How the data were processed

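RNA of whole right lung was measured on Affymetrix arrays, 3 irradiated and 3 untreated C57BL/6J samples among 18. The deposited values are linear intensity values, 1 per probe set, from MAS5 per the submitters' processing notes; the version is not given in the sources used here. The arrays were not at one level: their trimmed mean intensity, as deposited, ran from 46.3 to 175.6 over the 18 arrays. Here log2(intensity + 7), 7 being the rounded 25th percentile, was quantile-normalised over the 18 arrays. The 64 control probe sets were left out, as were probe sets not above the overall median in at least 3 arrays, leaving 25746. Of the 45101 probe sets 34958 name 1 gene, 932 several and 9211 none here; a gene took its probe set with the highest mean (12412 genes). limma 3.58.1 (R 4.3.3) fitted 6 group means with 12 residual degrees of freedom, two-sided, Benjamini-Hochberg, threshold 0.05, and was tested on simulated data. The number of arrays limits the precision, and the results also depend on the processing, as given below. Read depth has no counterpart.

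Genes named are the 12 highest and 12 lowest called genes with no overlap between groups, ranked by the smaller of the log2 fold changes with all arrays and without untreated arrays 1 and 3, up to 8 called members of each list, the 6 that shrink most without those arrays, the 6 highest and lowest of each strain difference, and fixed genes. Aen, Ccng1, Cx3cl1, Sox7 and Tie1 complete counts, and Eif2s3y, Xist and Rpgrip1 check labels. All of these were chosen after their values were seen. The members and lists were chosen with earlier results of these data known. Alternatives were the scaling, offset, filter, probe set rule, array weights, trend, a replicate block, a squamous covariate and left-out arrays.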

Additional observations from a re-analysis of the deposited data

Results flagged for a closer look

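The log2 fold change in C57BL/6J differed from that in A/J, by a limma test of the difference, for named genes that were more positive in C57BL/6J: Cxcl5 (2.99), H2-Ea (2.98), Arntl (2.80), Npas2 (2.62), Sfpq (2.59), Gprin3 (2.57), Ms4a1 (2.33) and Igha (1.36). H2-Ea was dim on all C57BL/6J arrays. In A/J it had 7.57, 6.87 and 6.90 in untreated and 3.62, 4.05 and 4.29 in irradiated arrays, and the latter go against the strain label. It was more negative for the squamous genes Krt4 (-8.81), Lce1h (-4.94), Lce3c (-4.75) and Krt78 (-4.05), and for Dbp (-4.70), Fam25c (-4.44), Tpsab1 (-2.83), Ankrd63 (-2.78), Chl1 (-2.41), Tpsb2 (-2.26), Hamp (-2.01), Timp1 (-1.95), Col1a1 (-1.73), Sox11 (-1.65) and Acta2 (-0.85). The squamous-high arrays are untreated arrays 1 and 3 of C57BL/6J and irradiated array 3 of A/J, which lie on opposite sides of this contrast.

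Against C3H/HeJ the same test gave more positive values in C57BL/6J for Ighm (2.77), Cyp26b1 (2.58), Acaa1b (2.48), Igkv6-20 (2.35), 1600014C23Rik (2.21), Arntl (2.14), Gprin3 (1.74) and Igha (1.70). It gave more negative values for Il6 (-3.80), Timp1 (-3.23), Tpsb2 (-2.95), Tpsab1 (-2.92), Ccl24 (-2.92), Chl1 (-2.83), Ankrd63 (-2.81), Saa3 (-2.69), Sox11 (-1.88), Dbp (-1.71) and Hamp (-1.57).

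Among 3809 kept probe sets that carry no single gene name, and so stood in no comparison above, 104 were called in irradiated C57BL/6J lung by limma, 70 higher and 34 lower.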

How the results depend on the processing

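Against 664 genes called in C57BL/6J, 220 were called on unscaled intensities, 342 with median centring (221 higher, 121 lower), 408 without the filter, 324 with the replicate number as a block, 71 with the squamous list's mean as a covariate, 79 with the 6 C57BL/6J arrays alone, 33 without untreated arrays 1 and 3, 32 without the 3 squamous-high arrays, and 219 to 731 with 1 array left out. The difference from A/J (677) became 251, 948 with median centring, 440, 347 with the replicate block, 85 with the covariate, 76 and 87 in the same order without the 2 and the 3 arrays, 1177 with array weights, and 383 to 711 with 1 array left out. That from C3H/HeJ (199) became 219 unscaled, 238 with median centring, 323 with an offset of 32, 99 without the filter, 79 with the replicate block, 35 with the covariate, 26 without the 2 and 18 without the 3 arrays, 408 with array weights, and 94 to 371 with 1 array left out. Fits with left-out arrays hold fewer samples; otherwise the cause was not tested. The replicate numbers are not said to pair the samples. Same-numbered arrays correlated at -0.0841, -0.0000975 and 0.0956 in their deviations from the group means, which with 3 arrays in a group cannot decide on pairing. Leaving out arrays cannot change the direction of a gene whose groups do not overlap. Of 191 named called genes none changed direction under any alternative, 76 were called with each array left out in turn, and 10 under every alternative in which they were tested (Ankrd63 and Sox11 did not pass the filter of 9 arrays): Ankrd63, Bmp6, Cd177, Cdkn1a, Hamp, Igha, Kit, Sox11, Tek and Zmat3.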
